A study of Mus musculus with 6 samples.

Results

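Splicing factor genes had assigned sites of Eomes, the T-box regulator of natural killer (NK) cell maturation, mostly at promoters. They were chosen by symbol as the SR protein genes (Srsf), the hnRNP genes (Hnrnp), the SF3A and SF3B genes (Sf3a, Sf3b), the snRNP protein genes (Snrp), the PRPF genes (Prpf) and the U2AF genes (U2af), with pseudogenes left out. The peak lists named 62 such genes among 23269 symbols. The same rule found 68 protein-coding genes among 21883 in the RefSeq gene table, and 6 of them had no assigned peak. Since a gene enters the peak lists only through a peak, shares of genes are given over the 68.

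The cells were NK cells purified from pooled splenocytes of C57BL/6 mice (wild type, 8 to 12 weeks old) and kept for 4 days in 100 ng/mL IL-15. In each of 3 separate experiments, chromatin was immunoprecipitated with an antibody against Eomes (IP), and DNA that was not immunoprecipitated served as input, giving 3 IP and 3 input libraries. There was no group without Eomes and no control antibody, and each experiment pooled animals. The binding sites came as 3 peak lists of 37456, 33841 and 46329 intervals in experiments 1, 2 and 3, and the files hold no RNA values.

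The spliceosome removes introns from pre-mRNA. The U1 particle and the U2AF dimer recognise the ends of the intron, the U2 particle with its SF3A and SF3B subcomplexes binds the branch point, and a particle of U4, U6 and U5 with many PRPF proteins completes the catalytic machine. Sm proteins form the ring on the small nuclear RNAs. SR and hnRNP proteins bind the pre-mRNA and change which exons are kept, and lymphocytes alter splicing of surface receptors such as CD45 when activated, a switch in which HNRNPLL and HNRNPL are known regulators.

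Promoter sequences are shown for 6 genes whose binding is described in the next paragraphs. They were picked to place the letters searched below beside strong or recurrent Eomes peaks. Each run holds the 250 bases before a transcription start, from RefSeq on GRCm38.p6, the assembly behind mm10, 5′ to 3′ on the gene's strand, and ends at the base before the start. Capitals mark the T-box letters GTGTGA or its complement TCACAC and the ETS letters CCGGAAG or CTTCCGG. Srsf11 has 2 starts with a region at each, at chr3:158036607-158036856 and chr3:158031749-158031998, both on the minus strand.
Srsf11 upstream start: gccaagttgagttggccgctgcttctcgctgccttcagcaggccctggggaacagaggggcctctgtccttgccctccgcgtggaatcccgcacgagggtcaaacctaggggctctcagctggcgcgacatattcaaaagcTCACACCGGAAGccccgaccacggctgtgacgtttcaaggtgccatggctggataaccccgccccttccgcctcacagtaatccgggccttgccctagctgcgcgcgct
Srsf11 downstream start: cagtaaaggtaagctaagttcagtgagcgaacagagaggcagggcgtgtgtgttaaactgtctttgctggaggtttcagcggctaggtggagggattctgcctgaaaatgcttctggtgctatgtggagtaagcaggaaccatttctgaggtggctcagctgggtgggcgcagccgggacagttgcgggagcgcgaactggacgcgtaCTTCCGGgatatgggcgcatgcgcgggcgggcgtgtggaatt
Prpf4b, chr13:34875279-34875528, plus strand: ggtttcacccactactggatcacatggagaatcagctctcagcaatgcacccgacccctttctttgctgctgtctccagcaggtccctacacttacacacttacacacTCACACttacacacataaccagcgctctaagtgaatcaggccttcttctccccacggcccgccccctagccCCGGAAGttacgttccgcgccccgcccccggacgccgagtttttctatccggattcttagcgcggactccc
Snrpb2, chr2:143062819-143063068, plus strand: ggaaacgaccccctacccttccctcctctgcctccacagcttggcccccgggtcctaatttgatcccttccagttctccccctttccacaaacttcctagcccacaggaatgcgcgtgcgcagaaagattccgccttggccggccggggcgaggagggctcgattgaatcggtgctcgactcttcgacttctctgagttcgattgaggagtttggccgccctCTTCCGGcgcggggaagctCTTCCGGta
Sf3a1, chr11:4160104-4160353, plus strand: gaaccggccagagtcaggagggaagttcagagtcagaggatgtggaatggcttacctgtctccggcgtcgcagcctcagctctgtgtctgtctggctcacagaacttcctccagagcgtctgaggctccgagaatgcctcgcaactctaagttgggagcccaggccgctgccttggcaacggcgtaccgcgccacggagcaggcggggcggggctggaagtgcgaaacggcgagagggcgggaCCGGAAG
Srsf3, chr17:29032410-29032659, plus strand, with neither set of letters: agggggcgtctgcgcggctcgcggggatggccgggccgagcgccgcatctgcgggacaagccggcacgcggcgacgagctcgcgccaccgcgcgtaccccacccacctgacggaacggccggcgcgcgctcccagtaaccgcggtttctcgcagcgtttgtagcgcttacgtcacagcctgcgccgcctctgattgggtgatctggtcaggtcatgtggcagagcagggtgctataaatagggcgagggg
Hnrnpa3, chr2:75659009-75659258, plus strand, with neither set of letters: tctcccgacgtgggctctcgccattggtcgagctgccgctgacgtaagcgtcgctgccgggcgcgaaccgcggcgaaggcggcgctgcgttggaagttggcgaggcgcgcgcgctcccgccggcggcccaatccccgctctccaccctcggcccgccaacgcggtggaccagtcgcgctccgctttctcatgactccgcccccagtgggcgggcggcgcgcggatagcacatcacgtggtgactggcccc

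Most of the peak summits at these starts lay inside the printed stretch. At the upstream Srsf11 start the summits of experiments 1, 2 and 3 fell 88, 47 and 35 bases before the start, and at the downstream start 56, 62 and 51 bases before it. The Sf3a1 summits lay 27, 37 and 26 bases before the start, close to the ETS letters that end its run. The Srsf3 summits lay 88, 73 and 99 bases before the start, and those of Hnrnpa3 131, 130 and 207 bases before it. The Snrpb2 summits were more scattered, at 13, 129 and 65 bases before the start. The Prpf4b run lies at a weaker region found in 2 lists, with pileups of 16 and 18 in experiments 1 and 3. The summits there were 8 and 40 bases before the start. The strongest Prpf4b peaks had summits 1090, 1089 and 1082 bp before the assigned start, outside the printed run.

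Eomes peaks recurred at the promoters of most of these genes. Overlapping intervals of the 3 lists were merged into regions, and a region seen in at least 2 experiments was called reproducible. Each region was given to 1 gene, that of its highest-ranked peak. Of the 68 genes, 54 (79.4%, 95% Wilson interval 68.4 to 87.3%) had a reproducible region, against 43.6% of all protein-coding genes. The same 54 had one at a promoter, defined by the deposited annotation as within 3000 bp of a transcription start, where the background was 37.2%. For 40 genes (58.8%) a promoter region was in all 3 lists, against 24.2% of all genes. A reproducible region outside promoters was held by 6 genes (8.82%, 4.11 to 17.9%), an interval that includes the 15.1% of all genes. Taken 1 list at a time, 54, 51 and 61 of the 68 genes (79.4%, 75% and 89.7%) had a peak in experiments 1, 2 and 3. The shares of all genes were 54.1%, 54% and 60.1%. A promoter peak was found for 52, 51 and 60 of the 68 (76.5%, 75% and 88.2%), against 40%, 41.8% and 48.5% of all genes. Wilson intervals here cover counting error only, and genes are not replicates of the experiment.

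**Figure D1:**
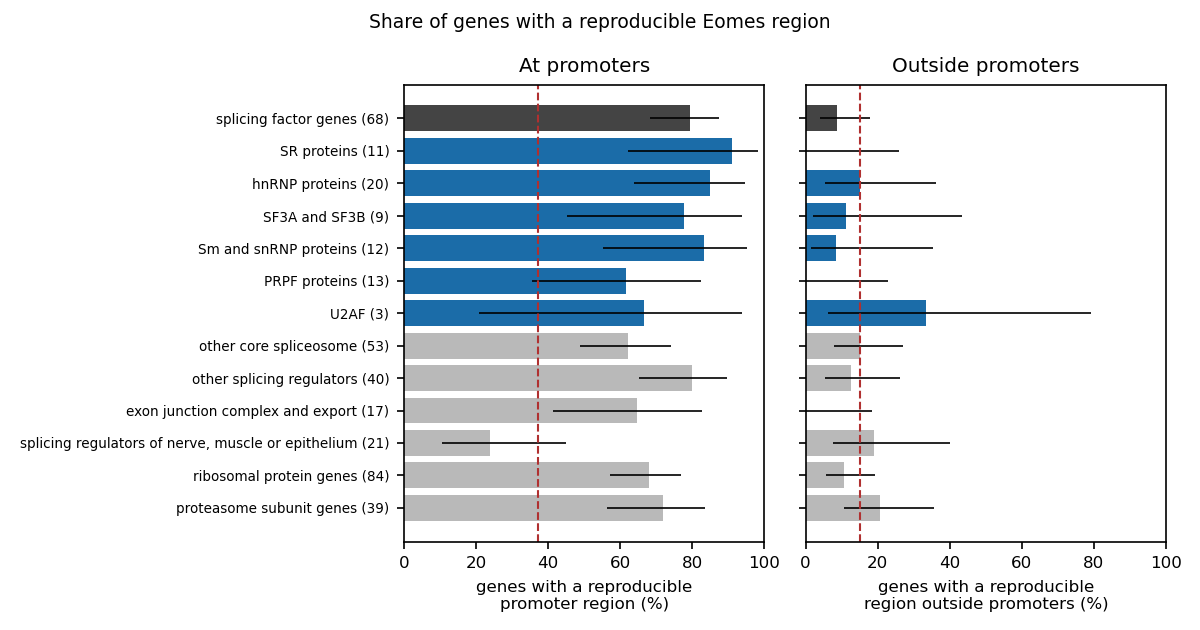
Share of genes with a reproducible Eomes region at promoters (left) and outside promoters (right), in percent, with 95% Wilson intervals; the number of genes is in parentheses and the dashed line is the share of all protein-coding genes (37.2% and 15.1%). The 68 splicing factor genes are in dark grey, their role groups in blue, and other gene lists in light grey.

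Annotated sites of the splicing factor genes were nearly all in promoters. Of their 85 reproducible regions, 78 were in promoters (91.8%, 84.0 to 96.0%), 6 in distal intergenic sequence and 1 in an exon, and none was in an intron. Over all reproducible regions, 59.1% were in promoters, 18.0% in introns and 18.1% in distal intergenic sequence. Counted per experiment, promoters held 81.4%, 87.1% and 87.6% of the peaks assigned to these genes, a mean of 85.4 ± 3.47% (SD, n = 3), against 44.3 ± 2.92% of all peaks. The share was higher for the splicing factor genes in each of the 3 experiments. Even among their regions found in only 1 list, 60.3% were at promoters, against a share among all such regions of 30.02%.

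SR proteins are serine- and arginine-rich factors that promote exon inclusion. Of their 11 genes, 10 had a reproducible promoter region and 7 had one in all 3 lists. None had a reproducible region elsewhere. Pileups are given in the order of experiments 1, 2 and 3, as the number of fragments at the summit. Srsf3, which encodes the smallest member of the family, had 37, 35 and 45 over its start on chromosome 17 (29032167 to 29033059), with a fold over background of 10.5 ± 3.88 (SD, n = 3). Its experiment 3 fold of 6.46 was the lowest of the 3 although the pileup was the highest, and the background there was 6.12 fragments against 2.46 and 1.54 in experiments 1 and 2.

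Srsf1, the founding splicing factor of the group, had 31, 36 and 48 on chromosome 11 (88047185 to 88047819), and the fold was 10.5 ± 3.44 (SD, n = 3). Srsf11, which encodes an SR-related protein, showed the steadiest strong region, with pileups of 29, 30 and 33 at its downstream start (158031326 to 158031957) and a fold of 10.9 ± 0.95 (SD, n = 3). At the upstream start (158036224 to 158036953) it had 19, 14 and 32, and that region also lies beside Lrrc40, whose start is 76 bp away on the other strand. Srsf7, a shuttling SR protein that also binds RNA through a zinc knuckle, had 25, 13 and 34 on chromosome 17 (80206539 to 80207584), with experiment 2 lowest. The remaining SR genes with a reproducible region were weaker, with leading promoter pileups between 10 and 26 in every list that held them. Srsf2 was the lowest of those in all 3 lists, at 12, 10 and 21.

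The hnRNP genes, whose products coat nascent RNA and often silence exons, held the most regions. Of 20 genes, 17 had a reproducible promoter region and 16 had one in all 3 lists. They accounted for 36 of the 85 reproducible regions. Hnrnpa3, an A/B-type hnRNP, led at promoters with pileups of 34, 30 and 49 on chromosome 2 (75658637 to 75660040) and a fold of 9.72 ± 2.08 (SD, n = 3). Hnrnpl, the CD45 splicing repressor, had 34, 17 and 48 at a start inside the gene on chromosome 7 (28820784 to 28821447), with experiment 2 lowest. Hnrnpf, which binds G-rich RNA, had 28, 21 and 43 in the last of its 3 promoter regions along chromosome 6 (117916731 to 117917415).

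Other hnRNP genes followed the same placement at lower pileups. Hnrnpa0 had 26, 23 and 34, Hnrnpd had 27, 16 and 36, and Hnrnpa2b1 had 26, 18 and 33, each in a region over or within 15 bp of a start. In the Hnrnpa2b1 region, the experiment 1 peak of 26 was assigned to Cbx3, whose start is 722 bp away on the other strand, and the peak assigned to Hnrnpa2b1 itself had 12, at 648 bp past the start. Hnrnpll, the CD45 regulator induced in activated lymphocytes, was weak, with a region in all 3 lists at 11, 11 and 18 (17: 80062177 to 80062708) and a neighbouring one at 13 and 16 in experiments 1 and 3. The promoter region of Hnrnpk, which encodes a poly(C)-binding protein, had 34, 18 and 20. The summits lay 59 and 361 bp upstream in experiments 1 and 2 and 852 bp past the assigned start in experiment 3. With summits spread over 1213 bp, the values need not come from 1 site in this merged region. That region spans 58401377 to 58403194 on chromosome 13 and also covers the start of Rmi1, 131 bp away on the other strand.

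SF3A and SF3B form the part of the U2 particle that grips the branch point. Of 9 genes, 7 had a reproducible promoter region, 4 of them in all 3 lists, and none had more than 1 at promoters. Sf3a3 had 35, 17 and 46 at its promoter on chromosome 4 (124714567 to 124714965), with a fold of only 3.62 in experiment 2 against 8.10 and 8.75. Sf3a1 had 23, 18 and 42 on chromosome 11 (4160106 to 4160719), a region that also lies at Ccdc157, whose start is 61 bp away. Sf3b1, the splicing factor most often mutated in myelodysplastic syndrome, had 27, 15 and 22 on chromosome 1 (55027082 to 55027796), and its fold was 4.98 ± 1.32 (SD, n = 3), the lowest of the promoter regions of Sf3a3, Sf3a1 and Sf3b1. Sf3a2 had 12, 15 and 27, with the experiment 2 peak assigned to Plekhj1, and its own peak there had 17. Sf3b2, Sf3b4 and Sf3b5 each had a promoter region in 2 lists only.

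Among the Sm and other snRNP protein genes, 10 of 12 had a reproducible promoter region but only 5 had one in all 3 lists. Snrpd3, an Sm ring protein, had the highest mean pileup, with 36, 19 and 29 on chromosome 10 (75517737 to 75518373) and a fold of 9.08 ± 1.40 (SD, n = 3). That region also covers the start of Gucd1, 70 bp away on the other strand, and its experiment 2 peak was assigned to a neighbour. Snrpe had 13, 14 and 36, and Snrpd1 had 19, 14 and 29, both Sm proteins with the highest pileup in experiment 3. Snrpb2, the U2 B″ protein, had 14, 13 and 25, and Snrpa1, its U2 partner, had 13, 10 and 17. Snrpb, Snrpc, Snrpf, Snrpa and Snrpd2 had promoter regions in 2 lists, with pileups from 11 to 20.

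The PRPF genes, named for yeast pre-mRNA processing mutants, held the strongest promoter region by mean pileup. Of 13 genes, 8 had a reproducible promoter region assigned to them and 7 had one in all 3 lists, while a reproducible region assigned to any gene covered a start of 11. Prpf18, which acts in the second step of splicing, had 41, 36 and 54 on chromosome 2 (4651769 to 4652373), and the fold was 13.6 ± 1.52 (SD, n = 3). Its fold percentiles were 98.9, 99.0 and 99.3 among the promoter peaks of the 3 lists. Its summits lay 68, 84 and 82 bp upstream of the assigned start.

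Prpf4b, a kinase of the spliceosome, had its strongest peaks 958 bp upstream of the assigned start on chromosome 13 (34874214 to 34874576), at 28, 28 and 37. The gene's RefSeq span begins shortly past that region, at 34874820. Weaker regions lay over and just after the assigned start. Prpf39, a U1-associated factor, had 18, 19 and 32, and Prpf4, a protein of the U4 and U6 particle, had 13, 19 and 25. Prpf6, Prpf38b and Prpf19 had promoter regions in all 3 lists with pileups from 10 to 25, and Prpf3 in experiments 2 and 3 only. No PRPF gene had a reproducible region outside promoters.

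The U2AF dimer marks the 3′ splice site. U2af2, its large subunit, had 22, 15 and 33 in a region 914 bp upstream of the assigned start on chromosome 7 (5060849 to 5061748). That region covers the 5′ end of the gene's RefSeq span at 5060885. A weaker region lay over the assigned start in experiments 2 and 3. U2af1, the small subunit, had a promoter region in 2 lists at 12 and 17, and U2af1l4 had a peak in experiment 3 alone.

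**Figure D2:**
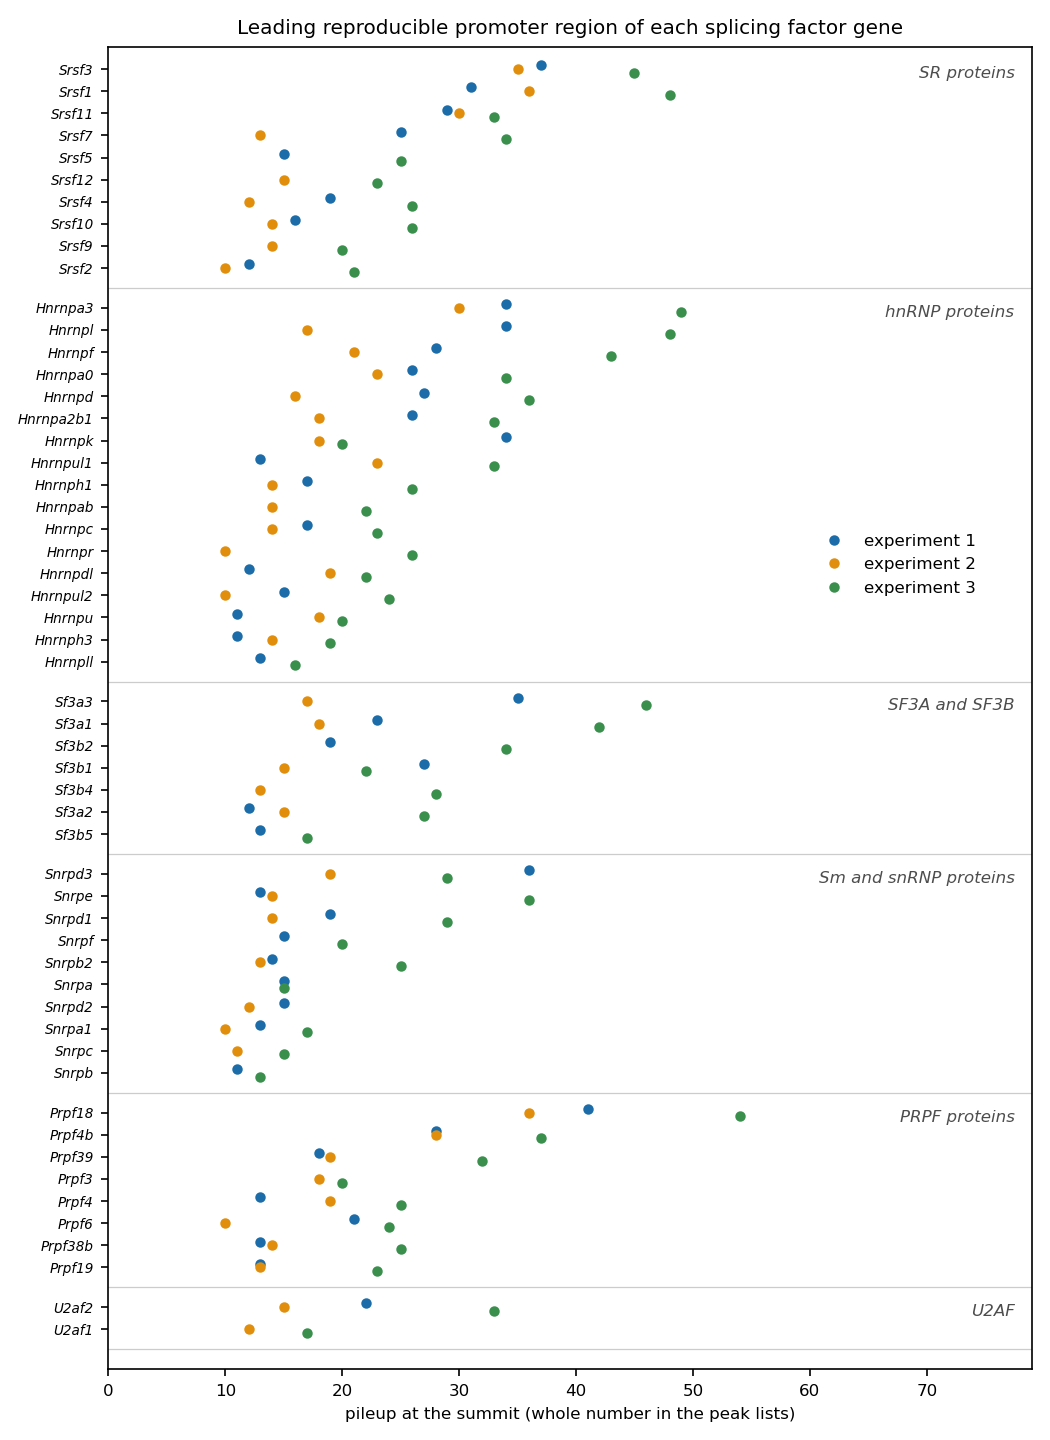
Pileup at the summit of the leading reproducible promoter region of each of 54 splicing factor genes, by role group; the x axis is the whole number given in the peak lists, and each point is 1 experiment (a missing point means no peak in that list). Prpf18 reaches 54 in experiment 3, and experiment 3 (green) is the rightmost point for most genes.

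Experiment 3 gave the highest pileup at most of these promoters. In 38 genes the leading promoter region was in all 3 lists, and experiment 3 was highest in 35 of them and experiment 1 in 3, while experiment 2 was lowest in 25. Over all promoter regions in all 3 lists, experiment 3 was likewise highest in 85.3%. No interval had a pileup under 8, 7 or 9 in the lists of experiments 1, 2 and 3. Across the 48 member promoter regions in all 3 lists, the rank order of pileups was shared only in part, with Spearman's rho of 0.48 between experiments 1 and 2, 0.67 between 1 and 3, and 0.59 between 2 and 3. The corresponding values over 6592 promoter regions were 0.60, 0.67 and 0.66. These points share their libraries and depth and are given as a description.

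The coverage of several genes rested on a single pair of lists. Of the 85 regions, 51 were in all 3 lists, 15 in experiments 1 and 3, 15 in experiments 2 and 3, and 4 in experiments 1 and 2. Without experiment 3, 13 genes lost their reproducible region, among them Srsf5, Srsf9, Srsf12, Hnrnpr and U2af1. Without experiment 1, Sf3b2, Sf3b5, Snrpb and Snrpf lost it, and without experiment 2, Prpf3, Sf3b4, Snrpc, Srsf9 and Srsf12.

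The 14 genes without a reproducible region of their own fell into different cases. For 3 genes with no assigned peak a reproducible region nevertheless covered the start, because the deposited annotation gave it to a divergent neighbour. Prpf31, a U4 and U6 particle protein mutated in retinitis pigmentosa, had pileups of 18, 10 and 24 over its start on chromosome 7 (3629745 to 3630044), assigned to Tfpt 56 bp away. Prpf38a had 18, 10 and 28 on chromosome 4 (108579166 to 108579835), assigned to Orc1, a replication origin protein 118 bp away. Sf3b3 had 10 and 13 in experiments 1 and 3 on chromosome 8 (110846803 to 110847224), assigned to Cog4 at 221 bp.

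Hnrnpa1, the best-known exon-silencing hnRNP, had a region in all 3 lists at 21, 12 and 21, which ended 266 bp from the transcript start in its RefSeq window, reached into the gene's annotated span and was assigned to Cbx5, a heterochromatin protein gene. Counting every gene that any peak of a region is assigned to, a choice made after the data were seen, gave 55 of 68 genes against 44.8% of all genes.

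Others had peaks that did not recur. Hnrnpm (23), Sf3b6 (17) and Snrpg (17) each had a single peak over the start in experiment 3. Prpf8, the central U5 protein, had 27 over its start in experiment 3, while its peak in experiment 1 lay 14099 bp from the gene's start and its peak in experiment 2 lay 355 bp before another annotated transcript start. Srsf6 had peaks of 9 and 9 in experiment 1 and 13 in experiment 3 that did not overlap, and the peaks of Prpf40b did not overlap either. Hnrnph2, on the X chromosome, and Snrpn, the imprinted gene expressed mainly in neurons, had neither an assigned peak nor a reproducible region over them.

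With genes judged by position rather than by assignment, the coverage was higher. A reproducible region lay over the gene or within 3000 bp of a start for 59 of 68 genes (86.8%), against 47.3% of all protein-coding genes. A region covered a start itself for 53 (77.9%), against 30.2%. Of the 59 splicing factor genes with RefSeq promoter windows, 17 had a divergent protein-coding start within 1000 bp. The same share was not computed over all genes. Where a region lies near both starts of such a pair, its site cannot be given to either gene alone.

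Binding was centred just upstream of the start. Of the 78 reproducible promoter regions, 54 (69.2%) touched an annotated start, against 55.3% of all promoter regions, and 75 (96.2%) lay within 1000 bp, against 86.2%. Their median width was 567 bp, against 454 bp. Summits of 63.6 ± 2.11% of the promoter peaks lay within 250 bp of the start (SD, n = 3), against 47.5 ± 1.98% of all promoter peaks. Among peaks that touched a start, the median summit was 40, 42 and 35 bp upstream in experiments 1, 2 and 3, against 14, 12 and 16 bp for all such peaks. Upstream summits made up 69.7 ± 5.86% of these peaks and 55.9 ± 0.72% of all of them (SD, n = 3 each), with splicing factor genes higher in each experiment.

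**Figure D3:**
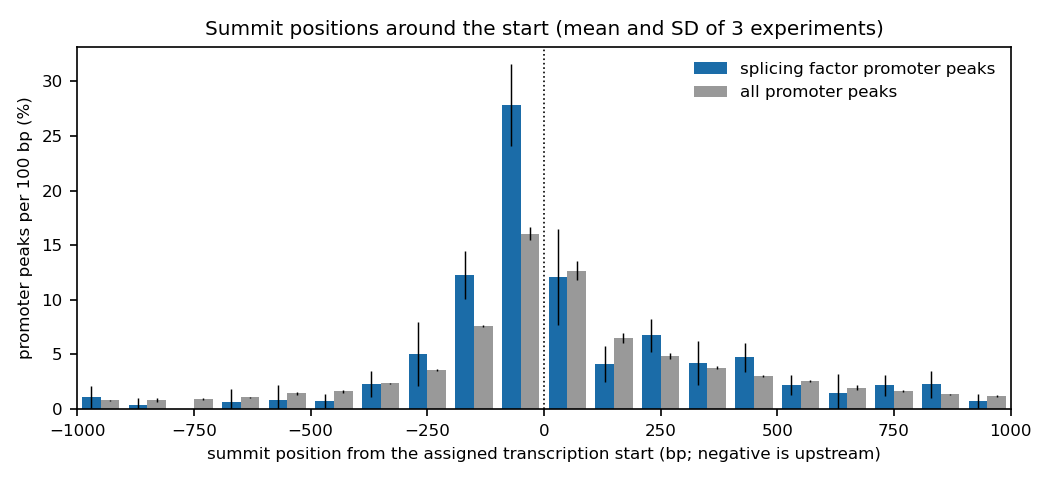
Summit positions of promoter peaks relative to the assigned transcription start in bp (x axis, negative is upstream) as the percent of promoter peaks per 100 bp (y axis), for splicing factor genes (blue) and all genes (grey); bars are means and lines the SD of 3 experiments. The bin from 100 bp upstream to the start is the tallest in both sets and taller for the splicing factor genes.

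The median of their promoter regions was above the middle of each list, and their highest pileups, 41, 36 and 54, were below the highest of the list. The reproducible promoter regions had a median pileup of 16, 14 and 24.5, against 15, 13 and 20 for all reproducible promoter regions, whose highest pileups were 289, 271 and 323. By fold, the median percentile among all promoter peaks of the list was 74.0, 74.3 and 82.0, a mean of 76.8 ± 4.53 (SD, n = 3), against 64.5 ± 3.21 for all reproducible promoter regions, and it was higher in 3 of 3 experiments. Leaving out experiment 2 moved the mean to 81.6. Of 6592 promoter regions in all 3 lists, 220 (3.34%) had a mean pileup above that of Prpf18, the highest member.

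**Figure D4:**
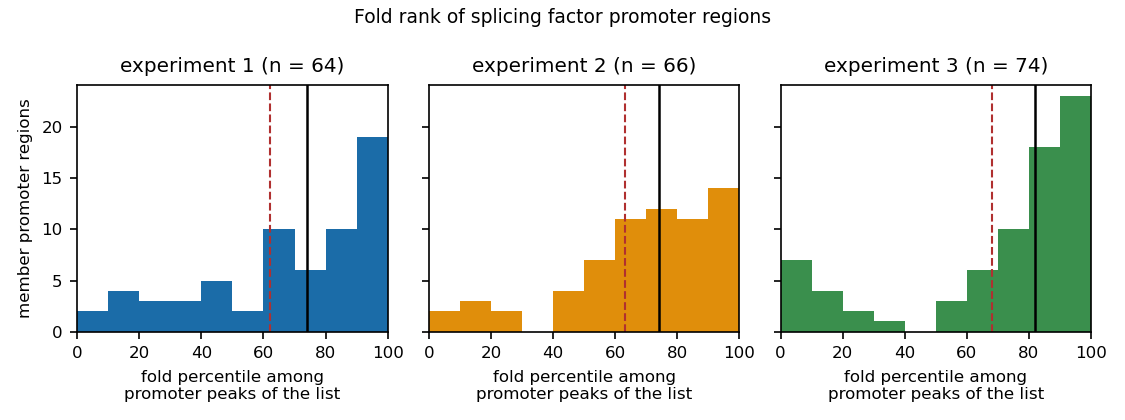
Number of reproducible promoter regions of splicing factor genes (y axis) by percentile of fold among all promoter peaks of the same list (x axis), in experiments 1, 2 and 3. The solid line is their median (74.0, 74.3 and 82.0) and the dashed line the median of all reproducible promoter regions.

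The spread of folds was wide in each list. Above the 90th percentile were 19 of 64, 14 of 66 and 23 of 74 regions in experiments 1, 2 and 3, and under the 20th were 6, 5 and 11. The same counts were not made over all reproducible promoter regions, whose median percentiles were 62.2, 63.2 and 68.2. The counts therefore describe the spread only. The background behind each fold, recovered from the deposited pileup and fold, had a median of 2.46, 1.59 and 3.08 fragments at these promoter peaks, against 2.46, 1.59 and 2.85 at all reproducible promoter peaks. A background above 2 times the lowest of its list was found at 7.96 ± 4.64% of the splicing factor peaks and 8.78 ± 1.57% of all (SD, n = 3). Its part in the folds was not tested.

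More than 1 promoter region was most frequent in the hnRNP group. Of the 68 genes, 17 (25%) had 2 or more reproducible promoter regions, against 8.76% of all genes, and 10 of them were hnRNP genes. The share was 50% of hnRNP (10 of 20), 36.4% of SR (4 of 11) and 33.3% of U2AF genes (1 of 3). It was 8.33% of Sm and snRNP (1 of 12), 7.69% of PRPF (1 of 13) and 0% of SF3A and SF3B genes (0 of 9). The Wilson intervals of the U2AF, Sm and snRNP, PRPF, and SF3A and SF3B shares all include the 8.76% of all genes. Any reproducible promoter region at all was held by 54 of the 68 and by 8133 of all 21883 genes. Hnrnpl had 5, with pileups of 16 and 30 in experiments 1 and 3 at 28808139 to 28808515, 26, 13 and 33 at 28808735 to 28809956, 17, 9 and 18 at 28810769 to 28811569, 14 and 11 in experiments 1 and 2 at 28816313 to 28816504, and the leading region already described. Hnrnpf had 3, separated by 6205 and 8788 bp, at 18, 12 and 32 and at 12, 16 and 24 for the weaker ones.

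At least 3 reproducible regions of any class were found at 6 genes, Hnrnpf, Hnrnph1, Hnrnpl, Hnrnpul1, Prpf4b and U2af1, that is 8.82% against 6.67% of all genes. Hnrnph1 had promoter regions at 17, 14 and 26, at 13 and 22 in experiments 2 and 3, and at 12 and 10 in experiments 1 and 2, separated by gaps of 83 and 166 bp on chromosome 11. Hnrnpul1 had 13, 23 and 33 over its assigned start and 23, 11 and 23 in a region 1249 bp upstream of it. That upstream region covers the 5′ end of the gene's RefSeq span at 25756268. Neighbouring regions of 1 gene were often close. Of 31 neighbouring pairs, 19 in 15 genes were at most 1000 bp apart, with a median gap of 221 bp and a smallest gap of 4 bp at Srsf4, so a count of regions partly reflects how intervals were split.

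Sites away from promoters were few and included the strongest region of the hnRNP group. On chromosome 13 (58471736 to 58472150), a region assigned to Hnrnpk from 68463 bp upstream had pileups of 46, 31 and 56 and a fold of 12.5 ± 1.69 (SD, n = 3). It lay within the lncRNA gene Gm40966, so the assignment to Hnrnpk is one of distance only. Sf3a3 had 36, 27 and 32 in a region 5102 bp upstream on chromosome 4 (124708952 to 124709688), where the fold was 10.3 ± 1.68 (SD, n = 3), 341 bp from Fhl3, a LIM-domain protein gene. At Sf3a3 this upstream region was as high as the promoter region in experiment 1 and higher in experiment 2, and lower in experiment 3.

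The other distal regions were weaker. U2af1 had intergenic regions 6116 and 9321 bp upstream, with pileups of 17 and 16 and of 10 and 14, both in experiments 1 and 3. Hnrnph1 had 1 at 5326 bp upstream, with 13 and 13 in the same experiments. Hnrnpdl had 1 at 11423 bp past the start, with 11 and 13 in experiments 2 and 3. The region assigned to Snrpd2 from 7765 bp, at 11, 13 and 23, was in an exon and lay within Gipr, the receptor gene for a gut hormone.

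The letters of a T-box motif were not frequent at bound splicing factor promoters. RefSeq windows from 250 bases before to 50 after a start were found for 59 of the 68 genes, 80 windows in all, and 63 of them from 47 genes touched a reproducible region. GTGTGA on either strand was in 5 of the 63 (7.94%, 3.44 to 17.3%), against 10.5% of 6964 bound protein-coding windows, 14.5% of 14298 windows without a region and 14.5% of all 32851 windows. Among the 17 windows of splicing factor genes that touched no region, 5 (29.4%) held it, and 4 of these were windows of Snrpn. The bound windows with these letters were those of Srsf11, Prpf4b, Prpf38a, Prpf39 and a start of Hnrnph1.

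At Srsf11 the letters began 109 bases before the upstream start and overlapped ETS letters that began at 104 bases before it, which form the run TCACACCGGAAG in the sequence shown above. That site was also the only bound window with GGTGTGA, which contains GTGTGA. In Prpf4b the letters began 142 bases before the start within a stretch of cacttacacac repeats.

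The letters of ETS, NRF1 and NF-Y were more common in the bound windows than those of the T-box, and those of CRE and YY1 were less common. These sets of letters differ in length, so each share is to be read beside that of the other windows. CCGGAAG, bound by ETS factors, was in 23 of 63 bound windows (36.5%, 25.7 to 48.9%), against 24.3% of bound protein-coding windows, 5.35% of windows with no region and 8.86% of all windows. The NRF1 palindrome was in 25.4%, against 12.4%, 3.45% and 4.60%. CCAAT, bound by NF-Y, was in 47.6%, against 37.6%, 38.5% and 37.4%. TGACGTCA (CRE) and AAGATGGC (YY1) were in 1.59% and 4.76%, against 3.99% and 5.26% of bound protein-coding windows and 1.79% and 2.75% of all windows. The GC content of the bound splicing factor windows had a median of 61.0%, against 63.3% for bound protein-coding windows and 52.0% for those with no region, and its part in these shares was not tested. Both strands were searched for each set of letters.

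**Figure D5:**
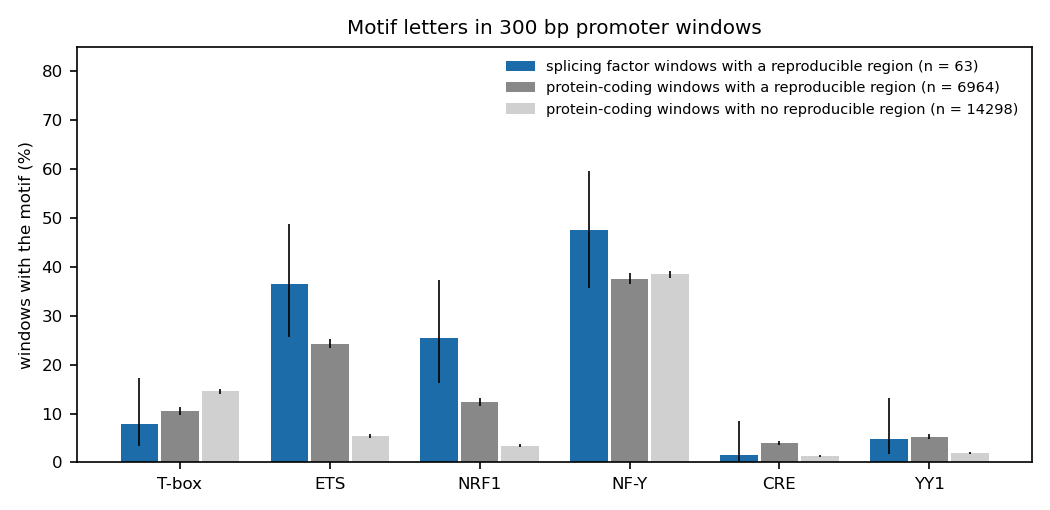
Percent of 300 bp promoter windows that hold the letters of each factor on either strand (y axis), with 95% Wilson intervals, for splicing factor windows with a reproducible region (blue), protein-coding windows with one (grey) and without one (light grey). The T-box letters are in 7.94% of the blue windows and the ETS letters in 36.5%.

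Snrpb2 shows the ETS letters on the opposite strand at 28 and 9 bases before the start, and Sf3a1 has them 7 bases before it. The strong regions of Srsf3 and Hnrnpa3 covered windows with neither the T-box nor the ETS letters. A match of letters does not show that a factor was bound, and a window without them can hold other forms of a site.

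Other splicing genes, listed by hand, were described in the same way. Of 53 other core spliceosome genes in the table, 33 (62.3%) had a reproducible promoter region, and of 40 other splicing regulators 32 (80%). Exon junction and export genes had 11 of 17 (64.7%). Splicing regulators of nerve, muscle or epithelium had 5 of 21 (23.8%, 10.6 to 45.1%). Theirs was the only share among these lists under the background of 37.2%, which its interval includes. Taken 1 experiment at a time, 38.1%, 47.6% and 42.9% of them had a promoter peak, against 40%, 41.8% and 48.5% of all genes. Ribosomal protein genes had 57 of 84 (67.9%) and proteasome genes 28 of 39 (71.8%), so high coverage also held for other housekeeping sets, and no test between the lists was made. Among leading promoter regions found in all 3 lists, the 4 highest by mean pileup in these splicing lists were as follows. Rnps1, a splicing activator, had 35, 42 and 69, and Snrnp35, a protein of the minor spliceosome, had 27, 43 and 61. Thoc1, an mRNA export factor, had 29, 30 and 64, and Rbm25 had 40, 23 and 55. Sart1, with a region in experiments 1 and 3 only, had 26 and 60.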

How the data were processed

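The members and lists were chosen with earlier results of these data known. The authors deposited 1 peak list per experiment, set against the input of the same experiment per the labels. Reads were aligned with Novoalign to mm10 and peaks annotated with ChIPseeker, per the submitters' processing notes; their versions, the peak caller and sequencing depth were not given in the sources used here. The deposited pileup is a signal value, read here as fragments at the summit. The deposited fold is the authors' ratio of IP to background, and the deposited −log10 p and q values are the authors' scores for each peak.

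Where an interval had several sub-peaks, the one with the highest −log10 q was kept, and intervals sharing at least 1 bp were merged (Python 3.11.15, pandas 2.3.3), tested on simulated data and checked against bedtools 2.31.1. A region took the annotation of its peak with the highest −log10 q percentile. Its pileup and fold in a list are those of the list's peak with the highest −log10 q there, whichever gene that peak was assigned to. Starts may be shifted by 1 bp. Background per peak was (pileup + 1) / fold − 1, and a Poisson tail at that value matched the deposited −log10 p within 0.000336. Genes were matched by symbol to RefSeq genes of GRCm38.p6 on the main chromosomes. Shares have 95% Wilson intervals. No test was run. Experiments came from pooled animals.

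Genes were named by rule: in each role group the 4 with the highest mean pileup in a leading region in all 3 lists, those with 3 or more reproducible regions, those with a region outside promoters and those without a peak. Others named were chosen after their values were seen. Alternatives covered the number of experiments required, the −log10 q minimum, reciprocal overlap, promoter width, gene assignment, the motif form and leaving out each experiment. The result of 1 gene is not reported here.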

Additional observations from a re-analysis of the deposited data

How the results depend on the processing

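Over 7 summary results, 48 alternative values stayed within the tolerance (1.5 times for counts, the spread between experiments or the counting interval for shares) and 4 moved. Requiring all 3 experiments left 51 reproducible regions in place of 85 and moved the median fold percentile from 76.8 to 81.4, by construction fewer regions. The T-box share fell from 7.94% to 1.59% with the longer GGTGTGA. Leaving out each experiment in turn gave 42 to 50 genes with a reproducible region, 42 to 49 with a promoter region, 59 to 67 regions, a promoter share of 90.9 to 94.9%, a share within 1000 bp of 96.4 to 98.4% and a fold percentile of 77.0 to 81.6. A −log10 q of at least 3 left 49 genes, and 50% reciprocal overlap left 51.

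No paired analysis was possible because the lists already set each IP against the input of the same number and hold no separate input values. The motif search in 300 bp around the region middles was not run, since no genome sequence was used here. No peak had a pileup under 7, and the part of depth or of the caller's threshold in that limit was not tested.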
